A study of Mus musculus with 5 samples.

Results

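Glycolysis and the response to low oxygen were followed through 41 genes chosen by symbol: the HIF subunits, the glucose and lactate transporters, the glycolytic enzymes, the pyruvate dehydrogenase kinases and further hypoxia targets. Of these, 38 had a named probe on the array and passed the filter on dim probes, out of 16917 genes tested in all. Hk2, Gpi1 and Eno1 were not analysed here. RNA was taken from whole mouse gliomas and hybridised to Illumina BeadArrays, with 3 mutIDH1 tumours and 2 wtIDH1 tumours. All tumours were raised in Ntva_Ink4a/Arf-/- mice of mixed FVB/N, C57BL6, BALB/C and 129 background, in which the virus receptor tva is, by the usual meaning of Ntva, driven by the nestin promoter of neural progenitors. Genes were delivered with RCAS, an avian virus that enters only tva-bearing cells. The mutIDH1 mice received PDGFa-expressing DF1 cells, a chicken fibroblast line that makes the virus, together with DF1 cells expressing muIDH1-shp53, and the wtIDH1 mice received the same PDGFa cells with DF1 cells expressing wtIDH1-shp53. Loss of Ink4a/Arf, PDGFa and the shp53 hairpin were therefore common to both groups, and the form of IDH1 differed. Tumours were taken once the mice showed signs of illness, and the labels name no drug treatment, age or time since injection. Tumour codes differ between all 5 samples; nothing further says that they are separate animals, so p-values measure the spread between these samples.

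Glycolysis splits glucose into pyruvate, which lactate dehydrogenase turns into lactate or which mitochondria oxidise through pyruvate dehydrogenase. Under low oxygen the HIF alpha subunits escape hydroxylation by prolyl hydroxylases, enzymes that need both oxygen and 2-oxoglutarate, and with their partner Arnt they raise transcription of glucose transporters, most glycolytic enzymes, pyruvate dehydrogenase kinase and factors that act on vessels. HIF alpha subunits are set largely by protein stability, so their transcripts do not report HIF activity. In gliomas this programme is known from the poorly perfused zones around necrosis.

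Values are log2 signals as deposited, and a signal at or under 7.53 was counted as background. Precision is limited by having 5 arrays. The 38 genes lay above background on all 5 arrays in 31 cases, and Slc16a1, Ldhb and Bnip3 were at or under it on all 5, so no change could be read for these 3. Across all genes the groups were centred alike, with a median difference of 0.014. The wtIDH1 samples stood apart from each other in markers of normal brain cells: the mean of 13 neuron markers was 9.85, 9.59 and 9.17 in mutIDH1 samples 1, 2 and 3, against 7.86 and 10.04 in wtIDH1 samples 1 and 2. Whole tissue was measured, so fewer cells of a type and less RNA per cell cannot be told apart.

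Most of the pathway was lower in mutIDH1 gliomas, but few genes passed the test on their own. The median difference over the 38 genes, mutIDH1 minus wtIDH1, was -0.32 on the log2 scale, with 28 genes lower and 10 higher, against 7715 lower and 9202 higher of all genes tested. The 28 include Slc16a1, Ldhb and Bnip3, whose signals were all background. In 20 of the 38 genes (52.6%) every mutIDH1 sample lay below every wtIDH1 sample, against 14.0% of all genes tested and 15.9% of the 9464 genes above background on all arrays. Bnip3 is counted among the 20 although its signals were all background. The opposite arrangement was met by 4 genes (10.5%), against 16.7% of all genes and 19.2% of those above background. The test was limma with Benjamini-Hochberg adjustment over all 16917 genes at 0.05, in which Slc2a1 and Pdk1 fell (2 of 38, 5.26%, against 0.899% of all genes) and Epas1 rose (1 of 38, 2.63%, against 0.449%). At an unadjusted p under 0.05, 18 genes were lower (47.4%, against 7.25% of all genes) and 3 were higher (7.89%, against 7.11%). Of the 9464 genes above background on all arrays, 123 fell and 73 rose, and 999 were lower and 1065 higher at the unadjusted threshold. The shares of the 38 describe genes that in part share a regulator, HIF, and that were listed with earlier results of these data known.

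**Figure D1:**
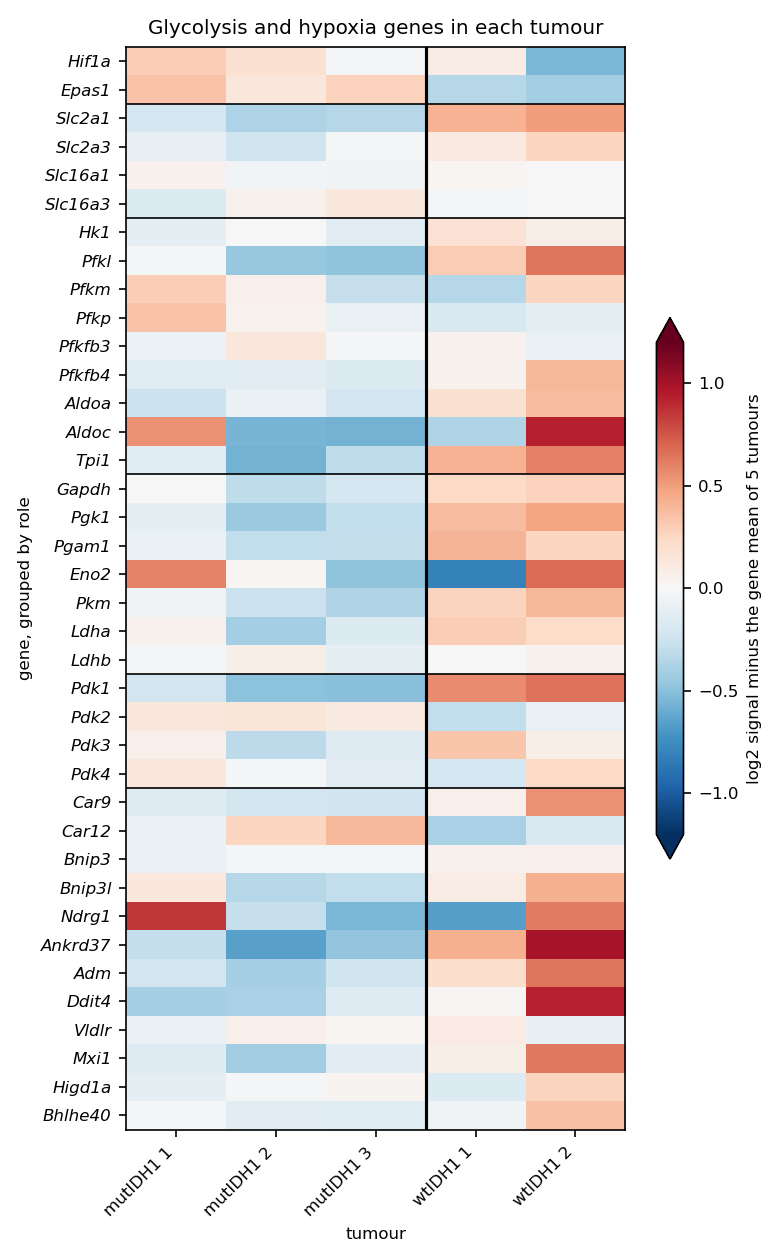
Log2 signal of each of the 38 genes (rows, grouped by role) in each tumour (columns, mutIDH1 left of the line and wtIDH1 right of it), minus the mean of that gene over the 5 tumours. Slc2a1, Pfkl, Tpi1, Pgk1, Pkm, Pdk1 and Ankrd37 are below their mean in all 3 mutIDH1 samples and above it in both wtIDH1 samples, while Aldoc, Eno2 and Ndrg1 are highest in mutIDH1 sample 1 and wtIDH1 sample 2.

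In each pairing of a mutIDH1 with a wtIDH1 tumour most of the 38 genes were lower in mutIDH1, but the wtIDH1 tumours also differed from each other. Against wtIDH1 sample 2, 28, 29 and 30 of the 38 genes were lower in mutIDH1 samples 1, 2 and 3, with medians of -0.28, -0.52 and -0.52. Against wtIDH1 sample 1 the counts were 24, 25 and 28, with medians of -0.19, -0.20 and -0.19. Between the wtIDH1 tumours, sample 2 was lower than sample 1 in 9 of the 38 genes, with a median of 0.17 for sample 2 minus sample 1, a difference close in size to those between the mutIDH1 samples and wtIDH1 sample 1. Over all 16917 genes the mutIDH1 samples were lower in 7646 to 8490 genes in these pairings, and wtIDH1 sample 2 was lower than wtIDH1 sample 1 in 9056. wtIDH1 sample 2 had the highest signal of the 5 tumours in 22 of the 38 genes (57.9%), and in 19.1% of all genes tested. The lowest signal was in mutIDH1 samples 1, 2 and 3 for 4, 12 and 10 of the 38 genes, and in wtIDH1 samples 1 and 2 for 8 and 4. Over all genes the shares lowest were 19.6%, 15.9% and 15.1% in mutIDH1 samples 1, 2 and 3, and 23.8% and 25.6% in wtIDH1 samples 1 and 2.

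**Figure D2:**
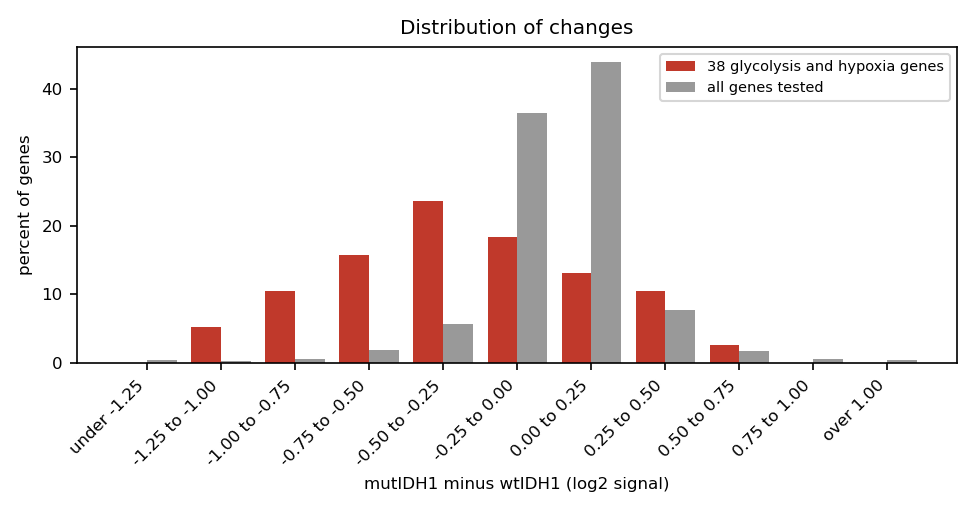
Percent of genes (y axis) by log2 difference, mutIDH1 minus wtIDH1 (x axis, bins of 0.25), for the 38 glycolysis and hypoxia genes (red) and all 16917 genes tested (grey). Of the 38 genes, 21 lie below -0.25 and 5 above 0.25.

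HIF binds a short core element, and the promoters of the listed genes were read for it. The core was searched as ACGTG and GCGTG on both strands, that is also as CACGT and CACGC, in the 250 bases before each annotated start. ACGTG and CACGT overlap in the palindrome CACGTG, and GCGTG and CACGC overlap in CACGCGTG. RefSeq promoter sequence of build GRCm38.p6 was at hand for 33 of the 38 genes, all but Epas1, Slc2a3, Bnip3l, Ndrg1 and Bhlhe40, and 29 of these (87.9%) held a match in at least 1 of their windows, against 52.4% of the 13545 tested genes with a window. ACGTG was present in 18 (54.5%, against 21.9%) and GCGTG in 21 (63.6%, against 41.5%). Median GC content was 62.4% in the first windows of the listed genes and 57.6% in those of the tested genes, and the list was drawn up in part from known HIF targets. Among genes with every mutIDH1 sample below every wtIDH1 sample, 18 of 19 with a window held a match, and among the others 11 of 14. A match is a stretch of letters and not a measured binding site. The windows of 6 genes, chosen after their values were seen, are shown because Slc2a1 and Pdk1 are the genes that fell and the others stand for a hypoxia target, a glycolytic kinase, lactate formation and a vessel-acting peptide; capitals mark the core element, and each window is written on the gene's own strand and ends at the base before the start.
Slc2a1 (chr4:119108495-119108744, plus strand): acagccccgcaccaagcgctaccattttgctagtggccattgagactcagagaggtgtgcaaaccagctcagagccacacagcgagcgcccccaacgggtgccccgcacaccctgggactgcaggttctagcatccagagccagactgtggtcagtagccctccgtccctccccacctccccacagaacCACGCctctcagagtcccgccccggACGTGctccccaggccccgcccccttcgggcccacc
Pdk1 (chr2:71872974-71873223, plus strand): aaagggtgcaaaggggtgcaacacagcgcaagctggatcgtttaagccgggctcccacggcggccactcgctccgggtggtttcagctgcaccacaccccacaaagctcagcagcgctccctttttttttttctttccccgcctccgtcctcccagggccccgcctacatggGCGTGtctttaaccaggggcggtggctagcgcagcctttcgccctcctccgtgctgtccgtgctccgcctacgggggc
Ankrd37 (chr8:45999851-46000100, minus strand): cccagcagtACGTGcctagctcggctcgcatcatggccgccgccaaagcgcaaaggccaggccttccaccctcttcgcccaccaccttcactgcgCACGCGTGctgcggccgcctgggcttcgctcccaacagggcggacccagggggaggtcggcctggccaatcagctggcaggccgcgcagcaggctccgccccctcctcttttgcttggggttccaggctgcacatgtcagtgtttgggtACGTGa
Pgk1 (chrX:106186850-106187099, plus strand): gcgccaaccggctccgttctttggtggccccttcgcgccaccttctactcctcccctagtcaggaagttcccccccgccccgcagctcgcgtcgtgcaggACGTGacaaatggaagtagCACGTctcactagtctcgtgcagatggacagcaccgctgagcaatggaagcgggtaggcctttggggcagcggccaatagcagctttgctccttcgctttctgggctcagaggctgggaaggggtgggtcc
Ldha (chr7:46845554-46845803, plus strand): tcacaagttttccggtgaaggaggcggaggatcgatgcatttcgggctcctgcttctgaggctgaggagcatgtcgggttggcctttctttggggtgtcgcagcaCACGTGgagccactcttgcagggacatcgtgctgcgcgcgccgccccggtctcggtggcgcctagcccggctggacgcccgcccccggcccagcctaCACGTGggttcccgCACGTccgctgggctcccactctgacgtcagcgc
Adm (chr7:110627407-110627656, plus strand): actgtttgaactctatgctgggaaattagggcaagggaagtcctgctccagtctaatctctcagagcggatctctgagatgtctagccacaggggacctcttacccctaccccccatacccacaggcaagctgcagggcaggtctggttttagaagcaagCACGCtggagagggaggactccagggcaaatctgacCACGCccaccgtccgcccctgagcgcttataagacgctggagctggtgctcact
Only the first annotated window of each gene is shown; Pdk1 and Ldha have a second, which held 0 matches in Pdk1 and 1 match, 59 bases before its start, in Ldha. In the windows shown, the Slc2a1 matches began 61 and 36 bases before the start, in Pdk1 78 bases, and in Pgk1 150 and 131 bases. The Ldha window held 5 matches, at 145, 144, 48, 47 and 34 bases, of which 4 form 2 palindromes. Ankrd37 held matches at 241, 155, 152 and 6 bases and Adm at 90 and 54 bases. The 4 genes with no match in any window were Tpi1, Eno2, Car12 and Vldlr.

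By their brightest probes, neither HIF alpha transcript was lower in mutIDH1. Epas1, which encodes the HIF-2 alpha subunit prominent in endothelium, had a log2 signal of 8.43, 8.22 and 8.36 in mutIDH1 samples 1, 2 and 3, against 7.74 and 7.68 in wtIDH1 samples 1 and 2. All mutIDH1 samples were above both wtIDH1 samples, by a gap of 0.48. The rise was 0.62 ± 0.09 (log2, SE), or 1.54-fold, with an adjusted p of 0.0478. A dimmer probe of Epas1, above background on 2 arrays only, moved the same way by 0.23. Epas1 passed narrowly: its adjusted p was 0.0544 with cyclic loess, 0.0509 with more dim probes left out, 0.0759 with the mean of its probes (0.43) and 0.0863 with sex as a covariate, and between 0.0777 and 0.201 when any 1 sample was left out, while the change stayed between 0.57 and 0.68. Hif1a, the more widely expressed HIF alpha subunit, had 8.87, 8.76 and 8.55 in mutIDH1 and 8.66 and 8.03 in wtIDH1, so the groups overlapped (0.38 ± 0.21, adjusted p = 0.513), and a dimmer probe, above background on 1 array, had the opposite sign (-0.19). The Hif1a difference was 0.69 without wtIDH1 sample 1 but 0.065 without wtIDH1 sample 2, and averaging all probes gave 0.094.

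Among the transporters, the main glucose transporter of the blood-brain barrier fell. Slc2a1, which encodes GLUT1, had a log2 signal of 11.59, 11.43 and 11.46 in the mutIDH1 samples, against 12.22 and 12.30 in the wtIDH1 samples. The gap between the groups, 0.63, was wider than the range within either. The fall was -0.77 ± 0.08 (log2, SE), or 1.71-fold lower, with an adjusted p of 0.0282. The call was lost with sex as a covariate, read from Xist and Eif2s3y (adjusted p = 0.0732), and without any 1 of the mutIDH1 samples (adjusted p = 0.0709 to 0.177), while the change stayed between -0.82 and -0.73. Slc2a3, the neuronal transporter GLUT3 that hypoxia also raises, had 11.10, 10.96 and 11.18 in mutIDH1 and 11.31 and 11.46 in wtIDH1, a smaller difference that did not pass (-0.31 ± 0.10, adjusted p = 0.242). The lactate exporter Slc16a3 (MCT4) was above background on 1 array and Slc16a1 (MCT1) on 0 arrays. Slc2a1 is also made by endothelium, and most endothelial markers were lower too. Of 15 markers 4 fell (Vwf, Emcn, Egfl7 and Cdh5, background 0.899% of all genes) and 0 rose (background 0.449%). By sign 13 were lower and 2 higher in mutIDH1, and in 5 the groups overlapped. The summed linear signal of the 15 was 14200 to 16900 in the mutIDH1 samples and 23400 to 23900 in the wtIDH1 samples. Ocln and Erg were at or under background on all arrays. The part of endothelium in the Slc2a1 result was not tested.

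**Figure D3:**
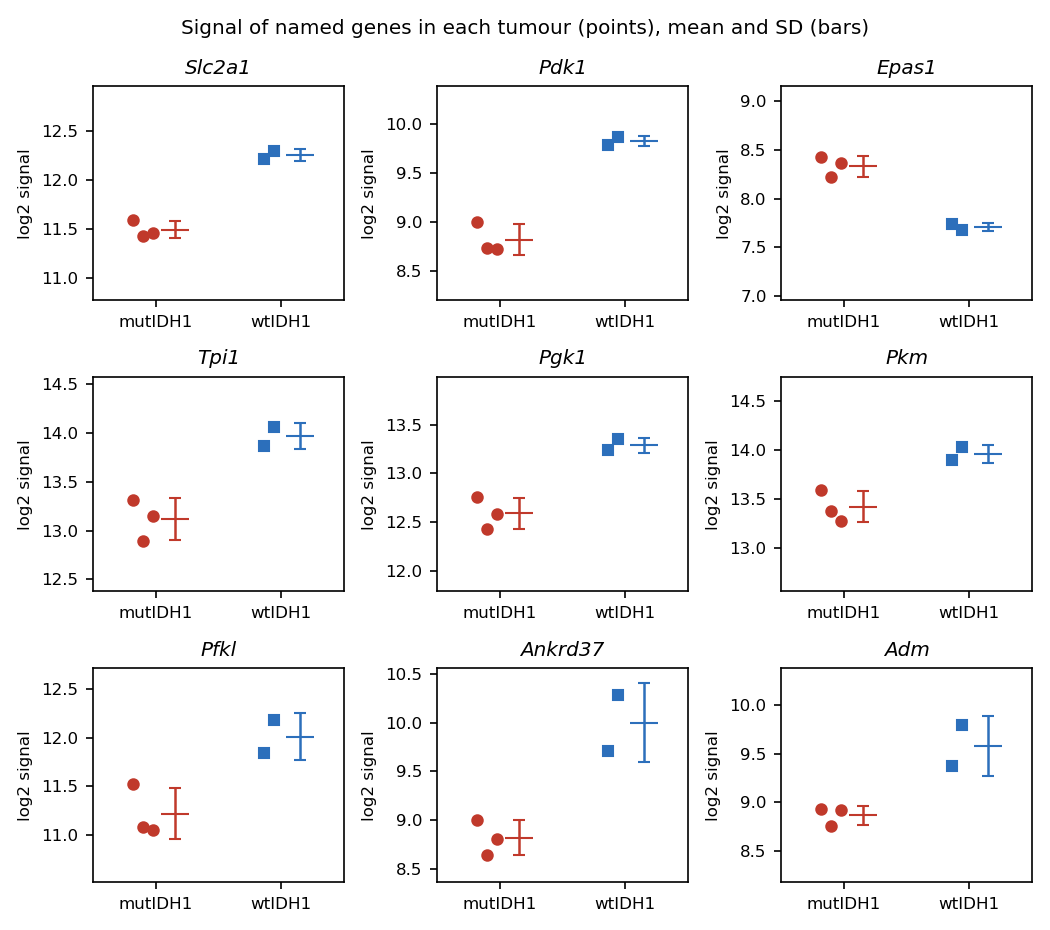
Log2 signal (y axis) of 9 genes in each tumour, with mutIDH1 as red circles left of wtIDH1 as blue squares; bars give the group mean and SD on 3 and 2 samples, and all panels span the same range of 2.2 log2 units. The 9 genes shown are a selection from those whose groups do not overlap, with Epas1 above and the other 8 below in mutIDH1. Of all 38 genes, the groups overlap in 14, and mutIDH1 lies below in 20 and above in 4.

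The enzymes from glucose to triose phosphate had a median difference of -0.38 over 9 measured genes, and 0 passed the test (limma; 5 at an unadjusted p under 0.05, all lower). Tpi1, triose phosphate isomerase, had the largest difference, with 13.31, 12.89 and 13.15 in mutIDH1 against 13.87 and 14.06 in wtIDH1 (-0.85 ± 0.15, adjusted p = 0.0718). Its probes of middle and lowest signal gave -1.02 and -0.26, and the groups overlapped in the dimmest. With trended and robust moderation Tpi1 had an adjusted p of 0.0188.

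The phosphofructokinase subunits, which form the committed step, did not all differ in the same direction. Pfkl, the liver-type subunit, had 11.52, 11.08 and 11.05 in mutIDH1 against 11.84 and 12.18 in wtIDH1 (-0.79 ± 0.18, adjusted p = 0.131), and its dim second probe differed by -0.31. Pfkp, the platelet-type subunit, had 10.41, 10.11 and 9.98 in mutIDH1 against 9.88 and 9.95 in wtIDH1 (0.25 ± 0.14, adjusted p = 0.522). In Pfkp the groups did not overlap but lay 0.031 apart, and a second probe above background gave 0.27; without mutIDH1 sample 1 the difference was 0.13. Pfkm, the muscle-type subunit abundant in brain, overlapped between the groups at 12.71, 12.48 and 12.14 in mutIDH1 against 12.08 and 12.68 in wtIDH1, and its dimmer probes gave 0.21 and 0.32. Whether the 3 subunits differ from each other in their response was not tested. Of the bifunctional enzymes that set fructose 2,6-bisphosphate, Pfkfb4 had 8.57, 8.58 and 8.55 in mutIDH1 and 8.77 and 9.12 in wtIDH1 (-0.38 ± 0.11, adjusted p = 0.221; -0.20 without wtIDH1 sample 2, -0.15 when both probes were averaged), and Pfkfb3, a main HIF-responsive form, was at or under background on 3 of 5 arrays.

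Hk1, the hexokinase of brain, lay 0.20 lower in mutIDH1, with a second probe of the opposite sign (0.20), so that the mean of its probes gave -0.00019. The aldolases differed in how they varied. Aldoa, the ubiquitous form, had 12.66, 12.84 and 12.69 in mutIDH1 against 13.10 and 13.30 in wtIDH1 (-0.47 ± 0.10, adjusted p = 0.110). Aldoc, the astrocyte form, had 13.30, 12.19 and 12.18 in mutIDH1 against 12.39 and 13.68 in wtIDH1, so that its spread within each group was wider than the difference between them (-0.48 ± 0.50).

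Over the 7 measured enzymes from triose phosphate to lactate the median difference was -0.43, 0 passed the test (limma), and 5 were lower at an unadjusted p under 0.05. Pgk1, the first ATP-forming enzyme, had 12.76, 12.43 and 12.58 in mutIDH1 against 13.24 and 13.35 in wtIDH1 (-0.70 ± 0.11, adjusted p = 0.0652). A dimmer probe of Pgk1 that lay above background did not show this (0.073), and the mean of its probes gave -0.31. Pgam1, phosphoglycerate mutase, had 10.85, 10.63 and 10.64 in mutIDH1 against 11.33 and 11.18 in wtIDH1, and its probes gave -0.55 and -0.48, both without overlap (adjusted p = 0.0832 for the brighter).

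Pkm, pyruvate kinase, had 13.59, 13.38 and 13.27 in mutIDH1 against 13.90 and 14.03 in wtIDH1 (-0.55 ± 0.12, adjusted p = 0.110). Gapdh, often used as a constant reference transcript, had 13.84, 13.53 and 13.62 in mutIDH1 against 14.07 and 14.11 in wtIDH1 (-0.43 ± 0.11, adjusted p = 0.159). Ldha, the lactate dehydrogenase subunit that HIF raises, had 14.01, 13.55 and 13.79 in mutIDH1 against 14.25 and 14.18 in wtIDH1 (-0.43 ± 0.14, adjusted p = 0.259). In Pkm, Gapdh and Ldha the groups did not overlap, with gaps of 0.31, 0.23 and 0.16. Gapdh, Aldoa, Pgk1, Tpi1, Pkm and Ldha have near-identical processed copies in the mouse genome, and what their probes read is to that extent uncertain.

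**Figure D4:**
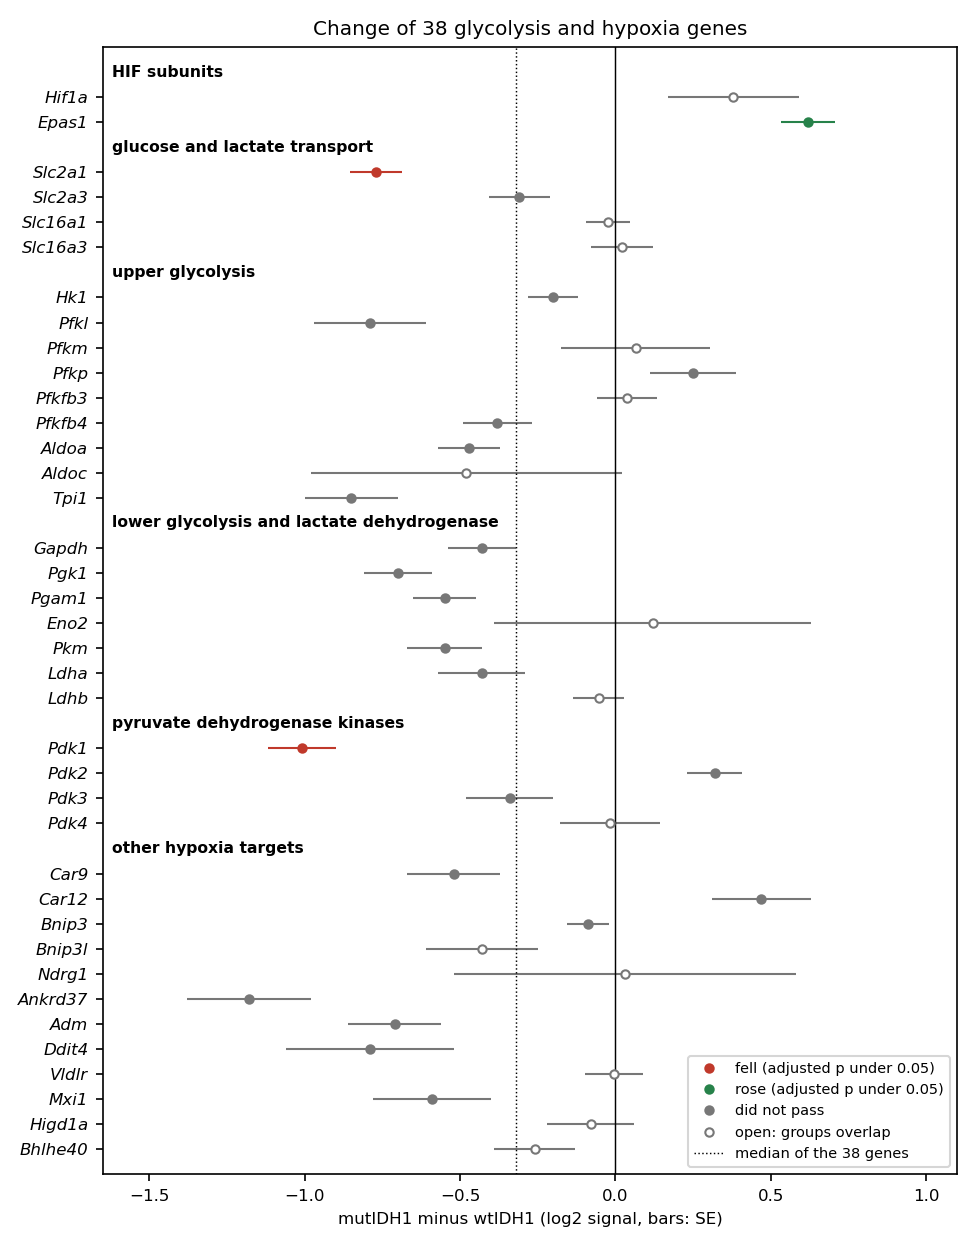
Log2 difference, mutIDH1 minus wtIDH1 (x axis), with its SE (bars) for the 38 genes by role; filled points have groups that do not overlap, open points have groups that do. Slc2a1 and Pdk1 (red) and Epas1 (green) passed, the dotted line at -0.32 is the median of the 38, and Aldoc, Eno2 and Ndrg1 have the widest errors.

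Of the kinases that switch off pyruvate dehydrogenase and so keep pyruvate out of mitochondria, the hypoxia-induced form fell. Pdk1 had 9.00, 8.73 and 8.72 in mutIDH1 against 9.79 and 9.87 in wtIDH1. This gap of 0.79 was the widest between groups of any of the 38 genes. The fall was -1.01 ± 0.11 (log2, SE), or 2.02-fold lower, with an adjusted p of 0.0306. A second Pdk1 probe, above background on 1 array, differed by -0.15, and the mean of both probes gave -0.58 with an adjusted p of 0.0679. The Pdk1 call was also lost with sex as a covariate (adjusted p = 0.0681) and without any 1 of the mutIDH1 samples (adjusted p = 0.0502 to 0.181), while the change stayed between -1.11 and -0.96.

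The other kinases did not pass. Pdk2, a widely expressed form, had 8.20, 8.21 and 8.18 in mutIDH1 against 7.77 and 7.98 in wtIDH1 (0.32 ± 0.09, adjusted p = 0.179), so its groups did not overlap but in the opposite order to Pdk1. Pdk3 had 9.72, 9.35 and 9.51 in mutIDH1 against 9.99 and 9.73 in wtIDH1 (-0.34 ± 0.14, adjusted p = 0.376; -0.21 without wtIDH1 sample 1). Pdk4, the form raised by fasting and fatty acids, was at or under background on 3 of 5 arrays.

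The further hypoxia targets had a median difference of -0.34 over 12 genes, of which 0 passed the test (limma; 5 lower and 1 higher at an unadjusted p under 0.05). Ankrd37, an ankyrin repeat protein that HIF induces directly, had the largest difference of all 38 genes, with 9.00, 8.64 and 8.81 in mutIDH1 against 9.71 and 10.28 in wtIDH1 (-1.18 ± 0.20, or 2.26-fold lower, adjusted p = 0.0672). It passed with normexp background correction (-1.34, adjusted p = 0.0396), with trended and robust moderation (adjusted p = 0.0134) and without wtIDH1 sample 1 (-1.46, adjusted p = 0.0300). Adm, the vessel-dilating peptide adrenomedullin, had 8.93, 8.76 and 8.92 in mutIDH1 against 9.37 and 9.80 in wtIDH1 (-0.71 ± 0.15, adjusted p = 0.105).

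Ddit4, the mTORC1 inhibitor REDD1, had 10.69, 10.70 and 10.94 in mutIDH1 against 11.11 and 12.02 in wtIDH1 (-0.79 ± 0.27, adjusted p = 0.265). The wtIDH1 samples were 0.91 apart in Ddit4, and the difference was -1.25 without wtIDH1 sample 1 and -0.34 without wtIDH1 sample 2. Mxi1, an antagonist of Myc, had 8.12, 7.86 and 8.14 in mutIDH1 against 8.34 and 8.91 in wtIDH1 (-0.59 ± 0.19, adjusted p = 0.242). Car9, the carbonic anhydrase that is a classic hypoxia marker of gliomas, was at 7.57, 7.51 and 7.49 in mutIDH1, at or under background on 2 arrays, against 7.79 and 8.28 in wtIDH1 (-0.52 ± 0.15, adjusted p = 0.205). Without wtIDH1 sample 1 Car9, Adm and Ddit4 passed (adjusted p = 0.0358, 0.0349 and 0.0306); in that fit the spread within wtIDH1 was taken from the mutIDH1 samples. Without wtIDH1 sample 2 the differences were smaller, at -0.27 for Car9 (adjusted p = 0.232), -0.50 for Adm (adjusted p = 0.103) and -0.31 for Mxi1 (adjusted p = 0.366). Dimmer Car9 probes, above background on 1 and 0 arrays, gave -0.096 and -0.23, and the mean of all its probes gave -0.28.

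In the next targets the groups overlapped or mutIDH1 was the higher. Car12, another membrane carbonic anhydrase, had 7.91, 8.25 and 8.38 in mutIDH1 against 7.60 and 7.81 in wtIDH1, with mutIDH1 the higher (0.47 ± 0.16, adjusted p = 0.265; 0.30 when both probes were averaged). Bnip3l, a mitophagy receptor, had 11.78, 11.32 and 11.36 in mutIDH1 against 11.75 and 12.08 in wtIDH1, and the groups overlapped through mutIDH1 sample 1 (-0.43 ± 0.18, and -0.26 without wtIDH1 sample 2). Bhlhe40, a transcriptional repressor of the circadian system, differed by -0.26 ± 0.13 and Higd1a, a mitochondrial protein, by -0.079 ± 0.14, with overlap in both. Without wtIDH1 sample 1 Bhlhe40 stood at -0.46, and without wtIDH1 sample 2 at -0.062. Vldlr, a lipoprotein and reelin receptor, stood at -0.0041 ± 0.09, and its 4 probes above background gave between -0.0041 and 0.21.

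Aldoc, Eno2, Ndrg1 and Pfkm ran in another order, in which the groups overlapped. Eno2, the neuronal enolase, had 12.78, 12.21 and 11.70 in mutIDH1 samples 1, 2 and 3 against 11.37 and 12.85 in wtIDH1 samples 1 and 2. Ndrg1, a stress-induced protein that oligodendrocytes also make, had 10.34, 9.21 and 8.94 in mutIDH1 against 8.82 and 10.11 in wtIDH1, and a second probe above background had the same order. In Aldoc, Eno2 and Ndrg1 the wtIDH1 samples were 1.28, 1.48 and 1.30 apart, and the mutIDH1 samples spanned 1.11, 1.08 and 1.40.

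Summed signals of normal brain cell markers were, like these genes, highest in mutIDH1 sample 1 and wtIDH1 sample 2, though not every single marker was. The other samples did not keep the same order. Aldoc was higher in wtIDH1 sample 1 (12.39) than in mutIDH1 samples 2 and 3 (12.19 and 12.18), where the astrocyte sum was the higher. The summed linear signal of 7 oligodendrocyte markers was 72000, 30900 and 20700 in mutIDH1 against 26500 and 66000 in wtIDH1, that of 13 neuron markers 24600, 17800 and 12600 against 4270 and 28400, and that of 9 astrocyte markers 39700, 30700 and 29500 against 12400 and 32500. Among them, Stmn2, a neuronal growth protein, was at background in wtIDH1 sample 1 (7.16) and at 11.81 in wtIDH1 sample 2. Of these marker lists, 0 genes passed the test (limma; 1 lower and 1 higher at an unadjusted p under 0.05, both astrocyte markers). Leaving out wtIDH1 sample 1 or 2 took Eno2 to -0.62 or 0.86, and Aldoc to -1.12 or 0.16. The part of these cells in the results was not tested.

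**Figure D5:**
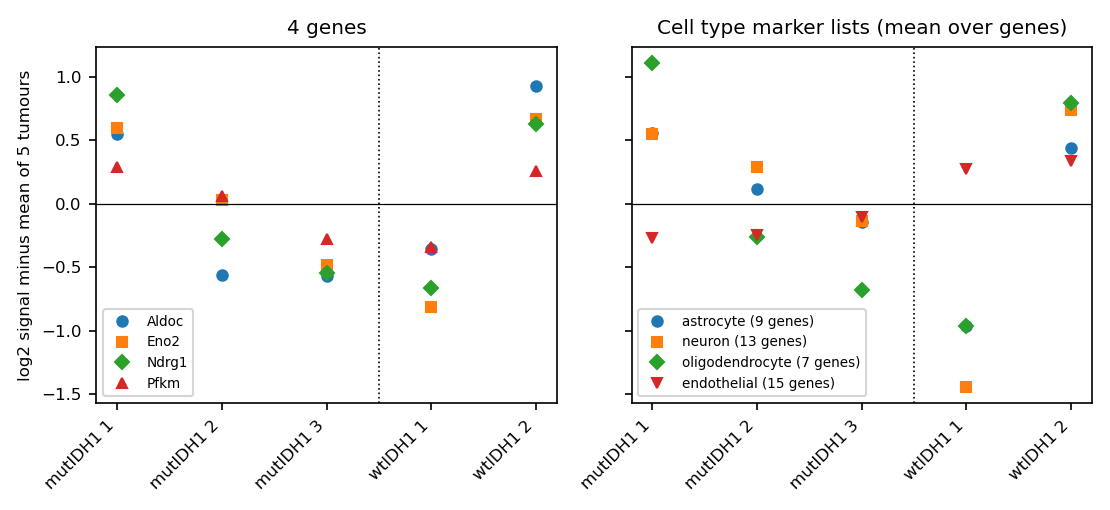
Log2 signal minus the mean of the 5 tumours (y axis) in each tumour (x axis, mutIDH1 left of the dotted line) for Aldoc, Eno2, Ndrg1 and Pfkm (left) and for the mean of 4 marker lists (right). Aldoc, Eno2, Ndrg1 and the astrocyte, neuron and oligodendrocyte lists are above their mean in mutIDH1 sample 1 and wtIDH1 sample 2 and below it in wtIDH1 sample 1, whereas the endothelial list is lower in all 3 mutIDH1 samples.

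Other genes of the pathway, taken from lists of oxygen sensing, further HIF targets, pyruvate entry and other isoforms, gave a mixed picture. Of 25 measured further HIF targets, 4 fell (background 0.899% of all genes) and 0 rose (background 0.449%), with a median of -0.49 against 0.014 over all genes, and in 14 all mutIDH1 samples lay below both wtIDH1 samples (background 14.0%). Vegfa, which drives vessel growth, stood at -0.99 ± 0.16 (adjusted p = 0.0642) and Hilpda, a lipid droplet protein, at -0.54 ± 0.09 (adjusted p = 0.0650). Those that fell were Lox, a collagen crosslinking enzyme (-2.18 ± 0.13, adjusted p = 0.0103), Ier3, an early response gene (-1.47 ± 0.18, adjusted p = 0.0380), Egln3 and Fam162a. Egln3, the prolyl hydroxylase PHD3 that HIF itself induces, had 8.75, 8.44 and 8.58 in mutIDH1 against 9.76 and 9.84 in wtIDH1 (-1.21 ± 0.11, adjusted p = 0.0216). Fam162a, a mitochondrial protein raised by hypoxia, had 11.60, 11.70 and 11.86 in mutIDH1 against 12.56 and 12.62 in wtIDH1 (-0.87 ± 0.10, adjusted p = 0.0311).

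Of 10 oxygen sensing genes, Egln3 was the 1 that fell (background 0.899% of all genes) and 0 rose (background 0.449%), with a median of -0.029. At an unadjusted p under 0.05 (limma) 1 was lower and 2 were higher. All mutIDH1 samples lay above both wtIDH1 samples in 4 (background 16.7%) and below them in 2 (background 14.0%). The constitutive partner Arnt had 9.14, 9.22 and 9.07 in mutIDH1 against 9.04 and 9.36 in wtIDH1, with overlap. Of 8 measured genes of pyruvate entry into mitochondria, 0 passed (limma; 1 higher at an unadjusted p under 0.05) and the median was 0.083; Pcx, pyruvate carboxylase, stood at 0.34 ± 0.14 (adjusted p = 0.343). Of 15 measured other isoforms and gluconeogenic genes, 0 passed (limma; 3 lower and 1 higher at an unadjusted p under 0.05) and the median was 0.006. Of these 15, 6 were at or under background on all arrays, so no change could be read for them.

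The summed signals of blood, vessel wall and macrophage markers were also lower in all mutIDH1 samples than in both wtIDH1 samples, while few of the single markers passed. Such sums weigh bright markers most, among them Hba-a1 of red blood cells (log2 12.60 to 13.89 in mutIDH1, 14.49 and 14.76 in wtIDH1). Among macrophage markers, Lyz2 was bright in wtIDH1 (9.30 to 10.62 in mutIDH1, 12.05 and 12.58 in wtIDH1). Of 3 measured red blood cell markers 0 passed (limma; 2 lower at an unadjusted p under 0.05), and their summed linear signal was 6540 to 15600 in mutIDH1 and 23800 to 29200 in wtIDH1. Of 8 mural cell markers 2 fell, Acta2 and Pdgfrb (background 0.899% of all genes), and 0 rose (background 0.449%). The sums of the 8 were 4380 to 5330 in mutIDH1 and 7210 to 9300 in wtIDH1. By sign 6 were lower and 2 higher, and in 3 the groups overlapped. Acta2 weighed heavily in the mural sums (log2 9.52 to 9.78 in mutIDH1, 11.58 and 12.12 in wtIDH1). These sums therefore do not show that mural markers in general were lower. Of 11 macrophage and microglia markers 2 fell, Mrc1 and Ms4a7 (background 0.899% of all genes), and 0 rose (background 0.449%). The sums of the 11 were 5080 to 6430 in mutIDH1 and 10400 to 15600 in wtIDH1. By sign 9 of the 11 were lower and 2 higher, and in 6 the groups overlapped. Of 7 proliferation genes 0 passed (limma; 0 at an unadjusted p under 0.05), with sums of 9690 to 13100 in mutIDH1 and 10700 to 13100 in wtIDH1. The part of these cells in the glycolysis and hypoxia results was not tested.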

How the data were processed

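Whole-tumour RNA of 5 mouse gliomas, 3 mutIDH1 and 2 wtIDH1 by their titles, was measured as biotin-labelled samples on Illumina BeadArrays. The log2 signals used here were deposited by the authors; per the submitters' processing notes limma was used, with no version given, and further steps are not given in the sources used here. Array medians of the 45281 values lay within 0.000688 of each other, above a floor near 7.25, where differences of dim genes are compressed. A table of non-normalized signals was not used, since its 10 columns carry names that match no single sample.

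Probes were named through the platform annotation (34885 with 1 symbol, 18 with several, 10378 unnamed here), with symbols updated for 34807 through RefSeq GRCm38.p6. The dimmest 20% of probes (mean under 7.23) were left out and the brightest probe stood for each gene. Background was the mode of all signals (7.25) plus 3 times the spread below it (0.0919). The fit across genes used limma 3.58.1 under R 4.3.3 (lmFit, then eBayes; 2-sided p-values; no covariate beside the form of IDH1; 3 residual and 2.50 prior degrees of freedom), and the test was tried on simulated data. Alternatives covered the filter, the probes per gene, background correction, normalization, moderation, sex, the sample number and leaving out each sample. All listed members are named; of the other pathway and marker lists, genes past the threshold and at most 2 others per list by smallest p, could be named, and Arnt, Stmn2, Ocln and Erg were added after values were seen. The members and lists were chosen with earlier results of these data known. A planned comparison of isoform proteins was not made here.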

Additional observations from a re-analysis of the deposited data

How the results depend on the processing

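The median difference of the 38 genes stayed below 0 under every alternative run, from -0.36 with the dimmest 40% of probes left out to -0.27 with the mean of all probes, and from -0.45 to -0.22 over the samples left out, with the extremes without wtIDH1 sample 1 and without wtIDH1 sample 2. Single calls were less stable. The count of listed genes that fell, 2, became 1 with the mean of all probes, 0 with sex as a covariate and 5 with trended and robust moderation, and ran from 0 to 6 over the samples left out (0 without any mutIDH1 sample, 6 without wtIDH1 sample 1). The count that rose, 1, became 0 with cyclic loess, with the stricter filter, with the mean of all probes, with sex as a covariate and without any 1 sample. Of all genes, 49 fell and 10 rose with sex as a covariate, 253 fell with trended and robust moderation, and over the samples left out the counts ran from 0 to 234 and from 0 to 245. The labels share sample numbers between separate tumours. The deviations of same-numbered samples had r = -0.26 for number 1 and 0.11 for number 2, across genes. With 2 wtIDH1 samples, the deviations of sample 1 mirror those of sample 2, so these r cannot decide whether the numbers mark pairs. The main fit did not treat them as pairs. With the number as a replicate block 0 listed genes fell or rose and 0 of all genes did. At an unadjusted p under 0.05 there were 1562 of all genes and 13 of the listed ones (limma with 1 residual degree of freedom). Genes near 0 changed sign: Slc16a3 to -0.095 with the mean of all probes, -0.0059 with sex as a covariate and -0.042 with the replicate block, Pdk4 to 0.045 with the block, and Ndrg1 to -0.025 and Vldlr to 0.078 with the mean of all probes. Over the samples left out, the ranges that crossed 0 were -0.042 to 0.10 for Slc16a3, -0.24 to 0.37 for Pfkm, -0.029 to 0.11 for Pfkfb3, -1.12 to 0.16 for Aldoc, -0.62 to 0.86 for Eno2, -0.24 to 0.20 for Pdk4, -0.62 to 0.68 for Ndrg1, -0.11 to 0.097 for Vldlr and -0.30 to 0.14 for Higd1a. Slc16a1 and Bnip3 had no value under the stricter filter. The cause of these shifts was not tested. Signals near background, those of the lactate transporters among them, could not be resolved, and having 2 wtIDH1 tumours limited the precision of the others.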
